A study of Homo sapiens with 6 samples.

Results

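The genes described here are the ligands, receptors and adaptors of insulin-like growth factor (IGF) signaling. The list held 7 genes, namely the ligands IGF1 and IGF2, the receptors IGF1R, INSR and IGF2R, and the insulin receptor substrates IRS1 and IRS2. They were taken by gene symbol from the 28181 genes of the files. IGF2 was not analysed here. Of the other 6 genes, 5 passed the filter on low values (a mean normalized count of at least 1 over all libraries), and IGF1 did not. The RNA-seq libraries came from 2 kinds of cells with 3 samples each, UE7T-9 SHC4 (called SHC4 cells here) and UE7T-9 Cont (called controls). UE7T-9 cells are human mesenchymal stem cells of the bone marrow that were made immortal with telomerase and a human papillomavirus E7 gene, which both kinds therefore carry. The SHC4 cells were infected with a lentivirus that expresses the adaptor SHC4 from a CMV promoter and were then selected with puromycin. The study's methods describe the controls as infected with a GFP vector in the same way, whereas the labels call them nontarget with a wild-type genotype. Nothing in the labels says whether the 3 samples of a group came from separate infections or clones, so the p-values measure the spread between these samples only.

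IGF1 and IGF2 are secreted growth factors that bind the receptor tyrosine kinase IGF1R, and the closely related insulin receptor INSR binds insulin and also IGF2. The activated receptors phosphorylate IRS1 and IRS2, docking proteins that recruit PI3 kinase and so turn on AKT, while SHC adaptors bind the same receptors and lead to RAS. IGF2R is no kinase. It is the large mannose 6-phosphate receptor, which carries lysosomal enzymes to the lysosome and removes IGF2 from the cell surface. IGF signaling is known in bone marrow stroma for its part in osteoblast growth. SHC4 has been described as a substrate of IGF1R. The family was chosen with earlier results of these data known, so the counts of its genes below are descriptions.

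The normalized count of a gene is its read count divided by 1 size factor per library. SHC4 itself was 56.5, 157 and 130 in the controls against 119166 to 155006 in the SHC4 cells, as labelled. The reads behind the values could be recovered and numbered between 18144993 and 27721397 per library. All 8 of 8 markers of marrow mesenchymal cells were detected, with summed normalized counts of 143995 to 400490.4 in the controls and 216383 to 370917 in the SHC4 cells. The sums were 218 to 407 in the controls and 274 to 346 in the SHC4 cells for blood cell markers, 58 to 78.9 in the controls and 49.2 to 96.7 in the SHC4 cells for endothelial markers and 68.3 to 166 in the controls and 13.3 to 64.2 in the SHC4 cells for epithelial markers. The defining blood cell marker PTPRC was 6.82, 3.53 and 2.95 in the controls and 2.64, 0.832 and 0 in the SHC4 cells, and the endothelial CDH5 was 0, 1.18 and 0 in the controls and 0, 0 and 1.16 in the SHC4 cells. The sums of the blood cell and endothelial lists thus came almost wholly from their other markers, which were detected. In DESeq2 the mesenchymal marker PDGFRB was higher and the epithelial marker KRT18 lower in the SHC4 cells (adjusted p = 0.0171 and 0.00804). Their part in the results below was not tested.

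The windows before the transcription start are shown first for 4 of the genes. These are IGF1R and IRS1, which had higher counts in every library of SHC4 cells than in any control, IGF2R, which had lower ones, and IGF1, which had almost no reads. Each is the 250 bases upstream of a RefSeq start in GRCh38.p14, written 5′ to 3′ on the strand of the gene. RefSeq windows were found for 6 of the 6 analysed genes, with 2 starts for IGF1. Capitals mark GGGCGG or CCGCCC (a GC box on either strand), CACGTG (an E-box, which reads alike on both strands) and GTAAACA (a FOXO motif, searched with its reverse TGTTTAC). The E-box was added to the search after the sequences were seen. No match overlapped one of another motif in these windows.
IGF1R, chr15:98648289-98648538, plus strand: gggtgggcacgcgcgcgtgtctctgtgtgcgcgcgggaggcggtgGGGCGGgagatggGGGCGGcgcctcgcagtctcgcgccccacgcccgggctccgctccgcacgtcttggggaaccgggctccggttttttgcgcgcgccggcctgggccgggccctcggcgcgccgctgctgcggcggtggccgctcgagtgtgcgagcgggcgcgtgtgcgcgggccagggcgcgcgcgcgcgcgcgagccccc
IRS1, chr2:226799821-226800070, minus strand: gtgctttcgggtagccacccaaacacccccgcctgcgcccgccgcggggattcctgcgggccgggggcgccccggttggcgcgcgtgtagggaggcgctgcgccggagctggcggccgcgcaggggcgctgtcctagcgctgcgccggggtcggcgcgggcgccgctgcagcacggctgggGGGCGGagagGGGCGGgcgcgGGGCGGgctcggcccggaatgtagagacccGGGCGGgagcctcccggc
IGF2R, chr6:159968832-159969081, plus strand: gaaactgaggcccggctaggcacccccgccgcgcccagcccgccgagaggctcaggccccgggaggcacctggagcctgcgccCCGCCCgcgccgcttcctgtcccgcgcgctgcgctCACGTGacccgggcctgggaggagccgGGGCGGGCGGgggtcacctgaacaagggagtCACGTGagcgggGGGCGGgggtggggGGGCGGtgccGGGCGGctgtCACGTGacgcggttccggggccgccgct
IGF1, chr12:102481748-102481997, minus strand: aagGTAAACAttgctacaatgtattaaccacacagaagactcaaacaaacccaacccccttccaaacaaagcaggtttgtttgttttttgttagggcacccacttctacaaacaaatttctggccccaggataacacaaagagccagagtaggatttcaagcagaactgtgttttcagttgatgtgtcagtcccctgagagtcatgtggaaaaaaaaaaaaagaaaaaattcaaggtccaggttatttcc

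The windows of the 5 tested genes were rich in G and C, at 76.4% (IRS2) to 81.2% (IGF1R), against a median of 58.0% over 35116 RefSeq windows of the same length. GC boxes were found 2 times in the IGF1R window, 4 times each in those of INSR and IRS1, 5 times in that of IRS2 and 6 times in that of IGF2R. Of all windows, 42.6% held at least 1. The IGF2R window also held 3 E-boxes, which start 132, 74 and 28 bases before the transcription start, and 6.34% of all windows held at least 1. None of the other windows held an E-box. The IGF1 window shown differed from those of the receptors in composition, with 39.6% G and C, no CpG and no GC box. It held the only FOXO match among the windows of the analysed genes, 247 bases before the start (2.98% of all windows hold one). IGF1R and IRS1 on the one hand and IGF2R on the other thus shared GC-rich windows with GC boxes. A match is a description of the letters and not evidence of binding.

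The type 1 IGF receptor had more reads in the SHC4 cells, the mannose 6-phosphate receptor fewer, and neither difference passed the limma test. IGF1R (ENSG00000140443, chromosome 15 from 98648539 to 98964530, plus strand, positions of GENCODE 29 on GRCh38) is the kinase that receives both IGF ligands. Its normalized count was 1577, 1476 and 1214 in control replicates 1, 2 and 3. It was 1876, 2181 and 2075 in SHC4 replicates 1, 2 and 3. Every library of SHC4 cells lay above every control, and the lowest value was that of control replicate 3. The means were 1422 ± 188 and 2044 ± 155 (SD, n = 3 each), a ratio of 1.44. The log2 fold change was 0.53 (standard error 0.14, 95% interval 0.22 to 0.84), with an adjusted p of 0.18 from limma with Benjamini-Hochberg adjustment over 23040 genes. DESeq2 on the recovered reads gave 0.52 (standard error 0.17) and called the gene higher (adjusted p = 0.0426), and edgeR did not (adjusted p = 0.156). Without control replicate 1, the control nearest to the libraries of SHC4 cells, limma called IGF1R with a log2 fold change of 0.61 (adjusted p = 0.0356).

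IGF2R (ENSG00000197081, chromosome 6 from 159969099 to 160113507, plus strand) differed in the opposite direction. Its normalized count was 11947, 12811 and 14163 in control replicates 1, 2 and 3. It was 9442, 8598 and 9199 in SHC4 replicates 1, 2 and 3. The groups did not overlap, and the control with the least IGF1R, replicate 3, had the most IGF2R. The means were 12974 ± 1117 and 9080 ± 435 (SD, n = 3 each), so that the mean of the SHC4 cells was 0.70 times that of the controls. The log2 fold change was -0.51 (standard error 0.15, 95% interval -0.84 to -0.18, adjusted p = 0.195 from limma). DESeq2 gave -0.51 and called the gene lower (adjusted p = 0.00957), while edgeR gave an adjusted p of 0.178. For both genes the exact permutation test over the 20 assignments of libraries to groups gave a two-sided p of 0.1, the smallest that 3 libraries against 3 allow. In a bulk sample, fewer cells with the transcript and less of it per cell cannot be told apart.

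**Figure D1:**
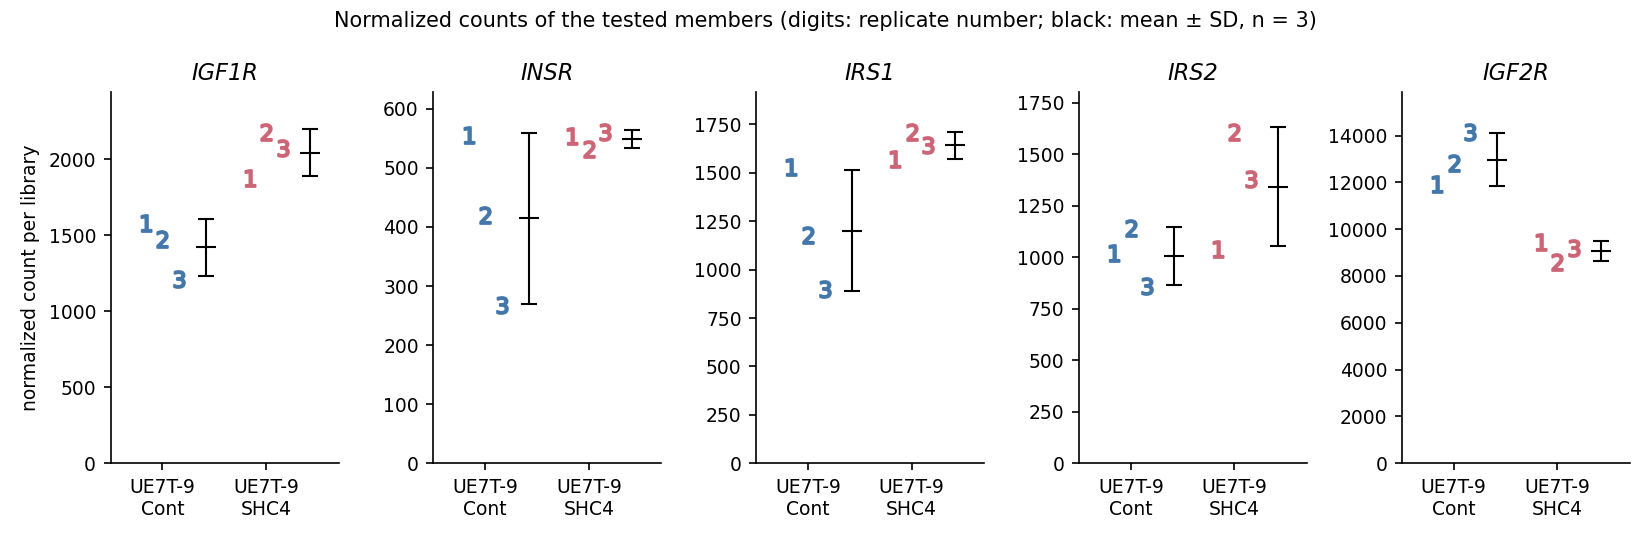
Normalized count of the 5 tested genes in each library, each panel with its own axis from 0; digits give the replicate number and black bars the mean ± SD of 3 libraries. The libraries of SHC4 cells lie above all controls for IGF1R and IRS1 and below all controls for IGF2R, whereas the groups overlap for INSR and IRS2.

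The 2 docking proteins and the insulin receptor had higher means in the SHC4 cells, and none of the 3 passed the limma test. IRS1 (ENSG00000169047, chromosome 2 from 226731317 to 226799759, minus strand) couples IGF1R and INSR to PI3 kinase. Its normalized count was 1528, 1177 and 900.1 in the controls and 1572, 1712 and 1643 in the SHC4 cells, for replicates 1, 2 and 3. The groups did not overlap, but control replicate 1 lay just under SHC4 replicate 1. The means were 1202 ± 315 and 1643 ± 69.97 (SD, n = 3 each). The log2 fold change was 0.48 (standard error 0.18, 95% interval 0.07 to 0.89, adjusted p = 0.281 from limma). The adjusted p was 0.252 in DESeq2 and 0.262 in edgeR. The log2 fold change was 0.67 without control replicate 1 (adjusted p = 0.0285 from limma) and 0.29 without control replicate 3 (adjusted p = 0.552).

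IRS2 (ENSG00000185950, chromosome 13 from 109752698 to 109786568, minus strand) has the same role as IRS1 and is itself a known target of FOXO factors. Its normalized count was 1022, 1141 and 859.8 in the controls and 1039, 1609 and 1381 in the SHC4 cells, for replicates 1, 2 and 3. SHC4 replicate 1 fell within the range of the controls, and the other 2 lay above it. The means were 1007 ± 141 and 1343 ± 287 (SD, n = 3 each). The log2 fold change was 0.40 (standard error 0.18, 95% interval -0.00 to 0.81, adjusted p = 0.352 from limma). Without SHC4 replicate 2 the log2 fold change was 0.26 (adjusted p = 0.726), lower than in the other 5 fits with a library removed. In the annotation, 115 exon bases of IRS2 overlap those of an antisense gene, AL162497.1.

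INSR (ENSG00000171105, chromosome 19 from 7112255 to 7294034, minus strand) encodes the insulin receptor, which also forms hybrid receptors with IGF1R. Its normalized count was 557, 420.3 and 268 in the controls and 554, 532 and 561 in the SHC4 cells, for replicates 1, 2 and 3. The libraries of SHC4 cells were close together, at the level of the highest control. The means were 415 ± 145 and 549 ± 15.3 (SD, n = 3 each). The log2 fold change was 0.47 (standard error 0.24, 95% interval -0.06 to 1.00, adjusted p = 0.408 from limma). The value rested on single controls. It was 0.18 (adjusted p = 0.736) without control replicate 3 and 0.71 (adjusted p = 0.0632) without control replicate 1. The counts are per gene, so the splice forms of INSR that differ in their affinity for IGF2 were not distinguished.

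IGF1 (ENSG00000017427, chromosome 12 from 102395874 to 102481744, minus strand), the ligand known as the mediator of growth hormone, was at the limit of detection. It had 0, 0 and 1 reads in the controls and 0, 1 and 0 reads in the SHC4 cells, for replicates 1, 2 and 3. With at most 1 read in any library no difference could be measured, and no fold change is given. A count of 3 reads corresponds to a normalized count of 2.50 to 3.53 in these libraries. In GENCODE 29, 6693 of the 8122 merged exon bases of IGF1 are overlapped by HELLPAR, a long noncoding RNA on the opposite strand. HELLPAR was listed at 20.5, 14.1 and 20.7 in the controls and 8.79, 10.8 and 9.32 in the SHC4 cells. The strand setting of the counting is not given in the sources used here, and reads in the shared exons cannot be assigned to one of these genes without it.

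**Figure D2:**
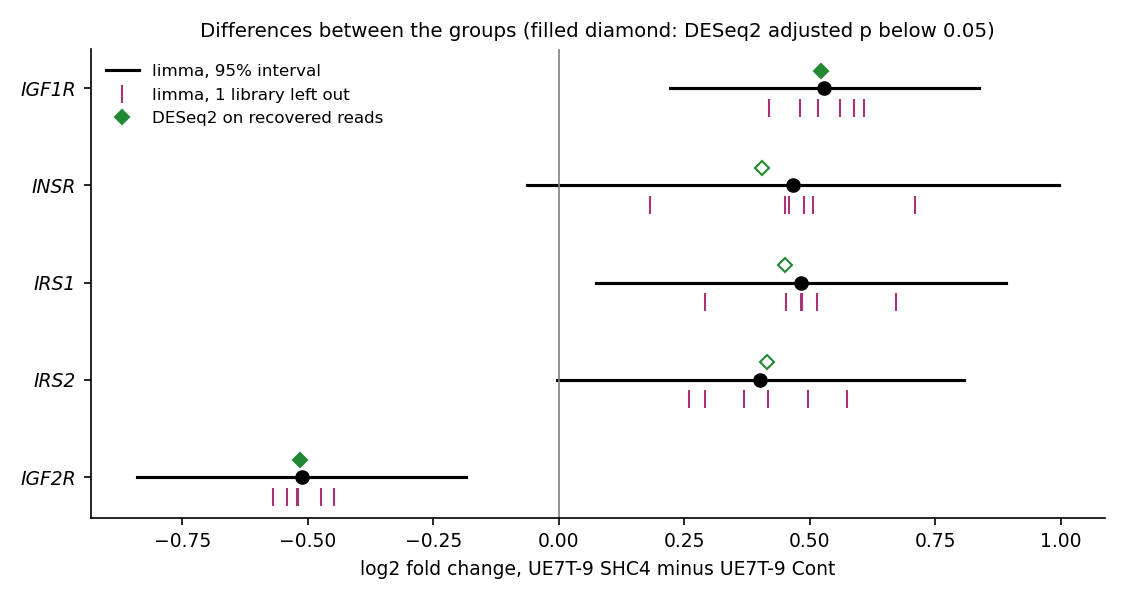
Log2 fold change of the 5 tested genes, SHC4 cells minus controls, with the limma estimate and its 95% interval (black), the limma estimates with 1 library left out (ticks) and the DESeq2 estimate (diamonds, filled where the adjusted p was below 0.05). The estimates of IGF1R, INSR, IRS1 and IRS2 are above 0 and those of IGF2R below 0 in every fit shown, and the ticks are spread most widely for INSR, from 0.18 to 0.71.

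Counted together, limma called 0 of the 5 tested genes at an adjusted p below 0.05, where it called 0.0651% of all 23040 genes (0.0564% higher and 0.00868% lower), and 3 of the 5 had an unadjusted p below 0.05 (14.4% of all genes). DESeq2 called 1 higher (IGF1R) and 1 lower (IGF2R), where it called 4.14% of 16153 genes (2.06% higher and 2.08% lower). edgeR called 0, where it called 0.0694% of 15859 genes (0.0631% higher and 0.00631% lower), and 4 of the 5 (IGF1R, IGF2R, IRS1 and IRS2) had an unadjusted edgeR p below 0.05 (17.6% of all genes). The groups did not overlap for 2 genes that were higher (IGF1R and IRS1; 9.13% of all genes) and 1 that was lower (IGF2R; 10.2% of all genes). The median log2 fold change of the 5 genes was 0.47, and that of all genes was -0.00. With 1 library left out, the median of the 5 was lowest without control replicate 3 (0.29) and highest without control replicate 1 (0.61). Without control replicate 1, 2 of the 5 were called higher (IGF1R and IRS1), while the share of all genes called rose to 5.68%.

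Single libraries stood at the same end for several of the genes. Control replicate 3 had the lowest value of the 6 libraries for IGF1R, INSR, IRS1 and IRS2 and the highest for IGF2R. Control replicate 1 had the highest control value for IGF1R, INSR and IRS1 and the lowest for IGF2R. Within the SHC4 cells, replicate 2 had the most IGF1R, IRS1 and IRS2 and the least IGF2R. IGF1R and IGF2R were thus in opposite order in all 6 libraries, within each group as well as between them.

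**Figure D3:**
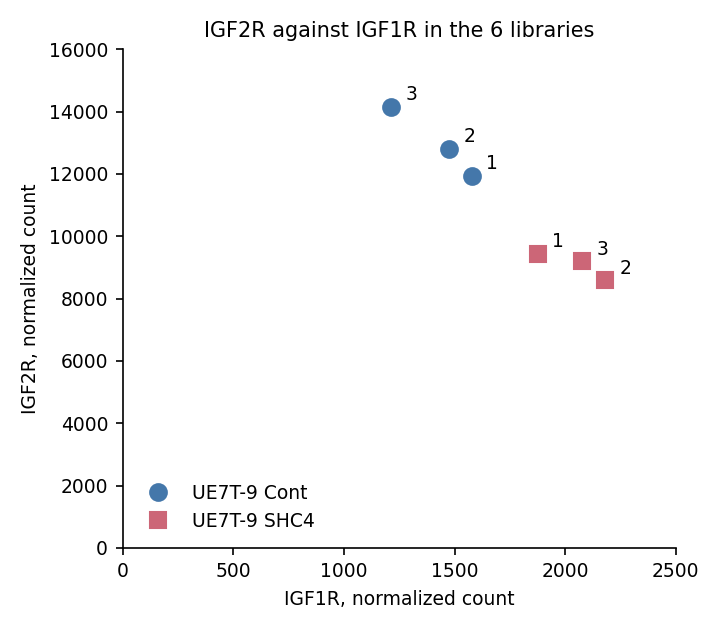
Normalized count of IGF2R (vertical axis) against that of IGF1R (horizontal axis) in the 6 libraries, with both axes from 0 and the replicate number beside each point. The library with the least IGF1R (1214, control replicate 3) had the most IGF2R (14163), and that with the most IGF1R (2181, SHC4 replicate 2) the least IGF2R (8598).

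Levels of different genes were compared as RPKM, the reads of a gene scaled by the length of its merged exons and by all reads of the library. On this scale IGF2R was the most abundant of the analysed genes of the family, at 33.9 ± 5.33 in the controls and 22.0 ± 0.997 in the SHC4 cells (SD, n = 3 each). Its mean over the 6 libraries was at least that of 93.8% of the tested genes. IRS2, IRS1 and IGF1R followed closely together, with means of 5.73 ± 0.725, 5.54 ± 1.05 and 4.71 ± 0.342 in the controls and 7.12 ± 1.53, 7.12 ± 0.318 and 6.33 ± 0.486 in the SHC4 cells (SD, n = 3 each). The ranges of IRS1 and IRS2 overlapped in both groups, and that of IGF1R overlapped with IRS1 in the controls and with IRS2 in the SHC4 cells. On merged exons IRS2 lay above IGF1R without overlap in the controls, and IRS1 did so in the SHC4 cells. The gap depends on the length used. Over the 6 libraries the means of IGF1R, IRS2 and IRS1 were 5.52, 6.43 and 6.33 on merged exons. On the longest transcript they were closer together, at 6.29, 6.43 and 6.49. INSR was lower than these 3 in every library, at 1.81 ± 0.511 and 2.27 ± 0.0534 (SD, n = 3 each). IGF1 did not exceed 0.00601. IRS4, a further receptor substrate, had no reads except in SHC4 replicate 2 (normalized count 1.66). The orphan receptor INSRR is also given in normalized counts and not in RPKM. It was at 46.6 in SHC4 replicate 2 and at 7.06 to 18.6 in the other libraries.

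**Figure D4:**
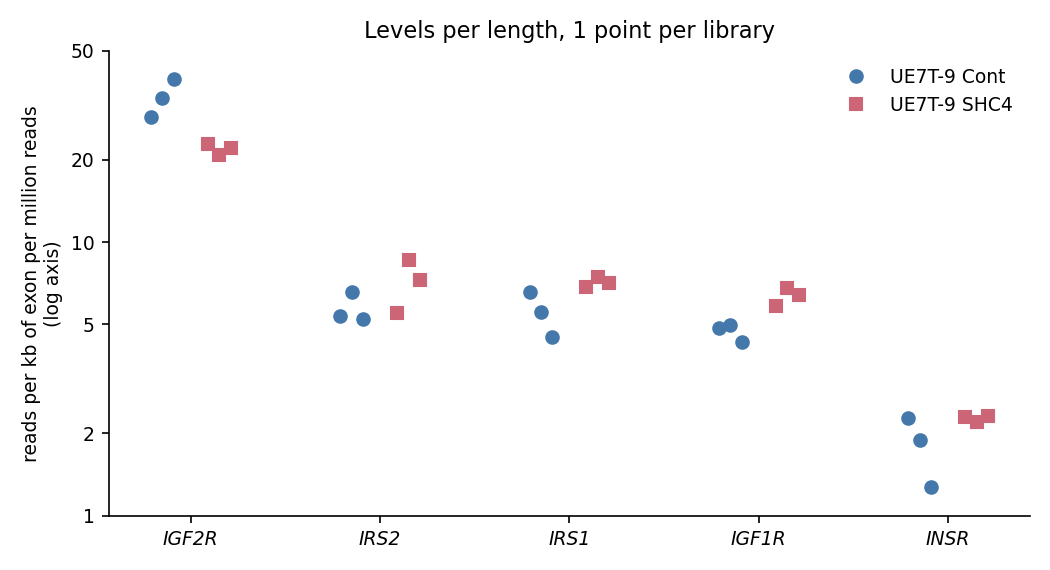
Level per length (RPKM over merged exons, log axis) of the 5 tested genes, 1 point per library. IGF2R lies between 20.9 and 39.4 and INSR between 1.27 and 2.31, with IRS2, IRS1 and IGF1R between them.

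The ratio of receptors within a library does not depend on its scaling. Per length there were 5.92, 6.78 and 9.12 IGF2R reads for each IGF1R read in control replicates 1, 2 and 3, and 3.93, 3.08 and 3.46 in the libraries of SHC4 cells. The ratio was therefore lower in every library of SHC4 cells. It was formed after the values of both genes were seen, and it is given as a description. The log2 ratio of the 2 kinases, IGF1R over INSR on normalized counts, was 1.83 ± 0.34 in the controls and 1.89 ± 0.14 in the SHC4 cells (SD, n = 3 each), a difference of 0.06 (exact permutation test, two-sided p = 0.9). That of IRS2 over IRS1 was -0.23 ± 0.30 and -0.31 ± 0.26, a difference of -0.08 (exact permutation test, two-sided p = 0.5). Neither balance differed beyond the spread of the libraries, and the sign of both differences changed when single libraries were left out. For IRS2 over IRS1 the log2 ratio was lowest in replicate 1 of each group. It was -0.58 there in the controls and -0.60 in the SHC4 cells, against -0.25 to -0.05 in the other libraries.

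The genes whose pattern over the 6 libraries was most like that of each member were found by Pearson's r of log2 values among 12677 genes at or above a mean of 50 normalized counts. They were MLLT6 and JCAD for IGF1R, FANCI and SPRED2 for IGF2R, EFS and ATF6B for INSR, LPIN2 and GPR153 for IRS1, and PIGF and CTTNBP2 for IRS2. Pearson's r was 0.994 (IRS2 and CTTNBP2) to 0.998 (IRS1 and LPIN2). The points share the same 6 libraries and their 2 groups, and the likeness is a description.

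The genes next to the receptors and further down the pathway were described from lists, with 0 calls by limma in each. Of 24 docking and receptor-proximal genes, which include GRB2, SHC1 and SOS1 as well as the inhibitors GRB10 and PTPN1, DESeq2 also called 0 (4.14% of all genes). A limma unadjusted p below 0.05 was found for 4 of the 24 (16.7%), near the share of all genes (14.4%). Their median log2 fold change was 0.11. SHC1, the widely expressed SHC adaptor, was 8752, 8221 and 7125 in the controls and 8703, 8297 and 8079 in the SHC4 cells (log2 fold change 0.06, adjusted p = 0.877 from limma), and it is named here for its role, outside the rule for named genes. The receptor phosphatase PTPRF had the highest log2 fold change of those with a mean of at least 50 (0.55, adjusted p = 0.448 from limma) and TRIB3, a pseudokinase that binds AKT, the lowest (-0.72, adjusted p = 0.31 from limma).

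Of 34 genes of the PI3K-AKT-mTOR pathway, 23 had a log2 fold change below 0 (50.3% of all genes) and 11 above, with a median of -0.08. A limma unadjusted p below 0.05 was found for 3 of the 34 (8.82%), a smaller share than that of all genes (14.4%). The groups did not overlap for 9 of the 34 that were lower (10.2% of all genes) and 1 that was higher (9.13% of all genes). Together these were 29.4% of the list, a larger share than that of all genes (19.3%). DESeq2 called 1 of the 33 that had an adjusted p, which is no larger a share than that of all genes (4.14%). It was PIK3R3, a regulatory subunit of PI3 kinase that binds receptors and IRS proteins. PIK3R3 was 639, 731 and 851 in the controls and 437, 522 and 512 in the SHC4 cells, and the groups did not overlap. The DESeq2 log2 fold change was -0.60 (adjusted p = 0.0367), while limma gave -0.59 (standard error 0.15, adjusted p = 0.174). The highest log2 fold change of this list was that of FOXO4, a transcription factor that AKT keeps out of the nucleus (0.41, adjusted p = 0.355 from limma).

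FOXO factors are active when insulin and IGF signaling is low. Of 16 such targets 14 were tested, and 11 had a log2 fold change above 0 (49.7% of all genes), with a median of 0.27. The median was 0.45 without control replicate 2 and 0.18 without SHC4 replicate 3. A limma unadjusted p below 0.05 was found for 4 of the 14 (28.6%, against 14.4% of all genes). DESeq2 called 2 of the 14 higher and 0 lower, where it called 2.06% of all genes higher and 2.08% lower. The mitochondrial superoxide dismutase SOD2 was 3688, 3725 and 3223 in the controls and 4055, 9438 and 8935 in the SHC4 cells. Its DESeq2 log2 fold change was 1.08 (adjusted p = 0.0108), and limma gave an adjusted p of 0.199. The ubiquitin ligase TRIM63 was 9.75, 14.1 and 12.8 in the controls and 20.2, 118 and 57.1 in the SHC4 cells. Its DESeq2 log2 fold change was 2.42 (adjusted p = 0.00721), and limma gave an adjusted p of 0.197. For both genes SHC4 replicate 1 was nearest to the controls, and replicates 2 and 3 were well above it. SOD2 is also a known target of NF-kappaB. SESN1 had the lowest log2 fold change of the targets with a mean of at least 50 (-0.17, adjusted p = 0.695 from limma).

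**Figure D5:**
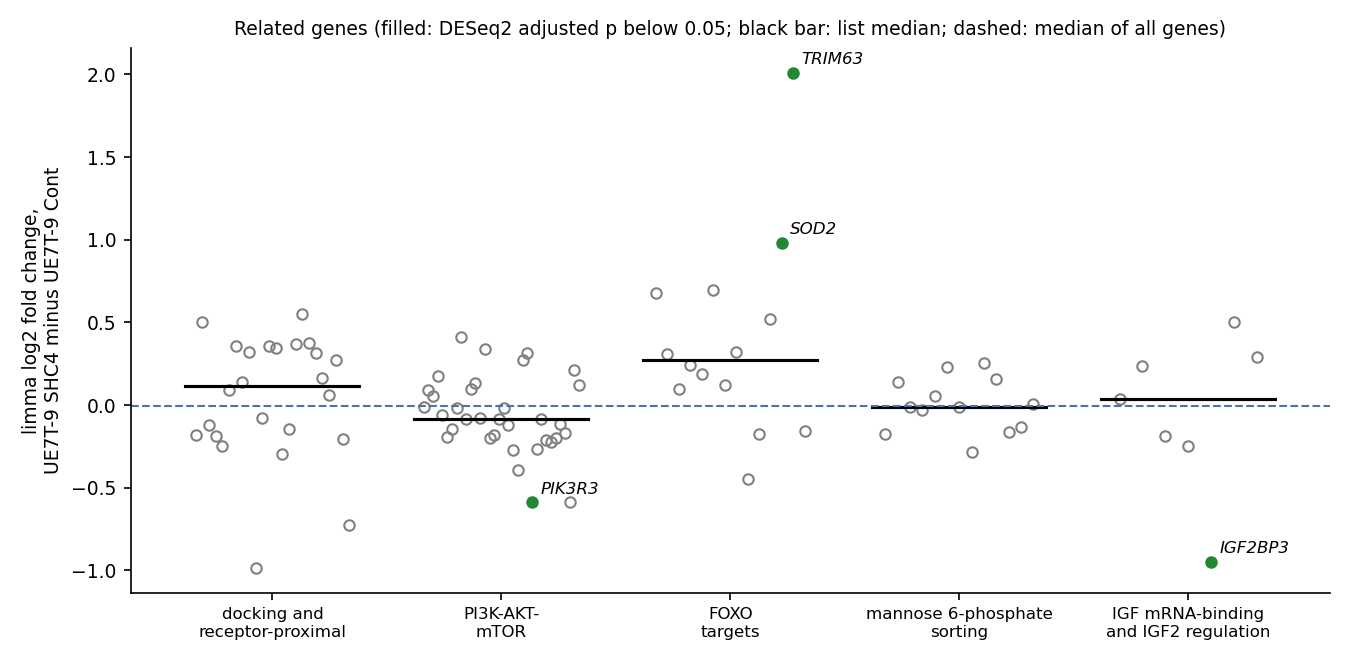
Limma log2 fold change (SHC4 cells minus controls) of the tested genes in 5 lists of related genes, 1 point per gene; green points were called by DESeq2 at an adjusted p below 0.05. Of the points, 4 are green, namely TRIM63 and SOD2 above 0 and PIK3R3 and IGF2BP3 below 0, and the list medians lie between -0.08 and 0.27.

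IGF2R shares its sorting role with the smaller receptor M6PR and with the enzymes, adaptors and retromer proteins of the mannose 6-phosphate route. Of these 13 genes limma and DESeq2 called 0 (0.0651% and 4.14% of all genes), and 0 had a limma unadjusted p below 0.05 (14.4% of all genes). The groups did not overlap for 2 genes that were higher and 2 that were lower (30.8% of the list, against 19.3% of all genes). M6PR was 2499, 3259.8 and 3604 in the controls and 2489, 2346 and 2799 in the SHC4 cells (log2 fold change -0.28, adjusted p = 0.452 from limma), the lowest of the list, and its groups overlapped. NAGPA, the uncovering enzyme that finishes the mannose 6-phosphate tag, had the highest (0.25, adjusted p = 0.432 from limma). The median of the list was -0.01.

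The IGF2BP proteins bind IGF2 and other messenger RNAs, and with 4 further genes they formed the last list, of which 7 genes were tested. DESeq2 called 1 of the 6 that had an adjusted p (4.14% of all genes). IGF2BP3, known mostly from embryonic tissue, was 614, 745 and 1339 in the controls and 472, 399.5 and 453 in the SHC4 cells. It was the gene called, lower in the SHC4 cells (DESeq2 log2 fold change -1.03, adjusted p = 0.0165), and limma did not call it (log2 fold change -0.95, standard error 0.25, adjusted p = 0.184). The groups did not overlap, and control replicate 3 had the highest value, as it did for IGF2R. IGF2BP1 was 741, 625 and 901 in the controls and 719.8, 671 and 588 in the SHC4 cells (log2 fold change -0.18) and was not called. IGF2BP2 was 1666, 1762 and 2214 in the controls and 1643, 1545 and 1522 in the SHC4 cells (log2 fold change -0.25) and was not called either. PLAGL1, an imprinted transcription factor, had the highest log2 fold change of the tested genes with a mean of at least 50 (0.29, adjusted p = 0.371 from limma).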

How the data were processed

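NEBNext Ultra RNA libraries were made from 3 samples of each kind of cells and sequenced on an Illumina instrument. The submitters' processing notes name HISAT2 2.0.5, featureCounts 1.5.0-p3 and DESeq2. The build, annotation and strand setting are not given in the sources used here. The deposited values are a normalized signal, in which the authors scaled each library's counts by 1 size factor (0.849 to 1.20). Dividing by the value of 1 read gave whole reads for 100% of values (within 0.01 reads), and these were used as recovered reads. Depth was 18144993 to 27721397 reads.

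Symbols were matched by identifier to GENCODE 29. A symbol with 2 identifiers (SOD2) took the lower one. Values of the 23040 genes whose mean reached 1 were put on the scale log2(value + 1) and fitted with limma 3.58.1 (R 4.3.3, mean-variance trend), with Benjamini-Hochberg adjustment. A fold change on this scale understates the change of low genes. Calls were made at an adjusted p below 0.05. DESeq2 1.42.0 and edgeR 4.0.16 (quasi-likelihood) on the recovered reads, other scalings, filters and pseudocounts, a replicate block and leaving out each library were alternatives. The fits were tested on simulated counts with planted changes larger than those of the family. That test does not show how often changes of the family's size are called. Permutation tests used scipy 1.17.1. The genes and lists were chosen with earlier results of these data known, and no list was tested as a set. From the lists, genes called by limma or DESeq2 and those with the highest and lowest log2 fold change at a mean of at least 50 are named, IGF2BP1 and IGF2BP2 beside IGF2BP3 outside this rule. IGF2 and the genes at its locus are not reported here.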

Additional observations from a re-analysis of the deposited data

How the results depend on the processing

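The log2 fold changes of IGF1R, INSR, IRS1, IRS2 and IGF2R kept their direction in all 14 alternatives run for each. Part of this was fixed in advance. The fits with other filters and with the replicate block repeat the main estimate by construction. For IGF1R, IRS1 and IGF2R, whose groups did not overlap, leaving out 1 library could not reverse the direction. DESeq2 brought IGF1R (0.52) and IGF2R (-0.51) below an adjusted p of 0.05, and leaving out control replicate 1 brought IGF1R and IRS1 below it. With 1 library left out in turn, the limma log2 fold change ranged from 0.42 to 0.61 for IGF1R, from -0.57 to -0.45 for IGF2R, from 0.18 to 0.71 for INSR, from 0.29 to 0.67 for IRS1 and from 0.26 to 0.57 for IRS2. Over all 14 alternatives the adjusted p ranged from 0.0356 to 0.588 for IGF1R, from 0.00957 to 0.588 for IGF2R, from 0.0632 to 0.736 for INSR, from 0.0285 to 0.641 for IRS1 and from 0.177 to 0.726 for IRS2. The number of the family's genes called ranged from 0 to 2 in these fits and was 2 in DESeq2. DESeq2 called 669 genes in all and limma 15, and leaving out control replicate 1 gave 1311 in limma. The cause was not tested. Library size scaling moved the median of all genes to -0.10, and gave IGF1R 0.43 and IGF2R -0.62.

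In the lists, DESeq2 called 1 gene of the PI3K-AKT-mTOR pathway, 2 FOXO targets and 1 gene of the IGF mRNA-binding list. With 1 library left out, these counts ranged from 0 to 1 in limma, with the 1 call made without control replicate 1 in the first and the last of these lists and without SHC4 replicate 1 among the FOXO targets. The median log2 fold change of the docking list was -0.00 without control replicate 3, and that of the mannose 6-phosphate list was 0.00 with TMM scaling. The difference in the log2 ratio of IRS2 over IRS1 ranged from -0.26 to 0.06 and that of IGF1R over INSR from -0.10 to 0.24 with 1 library left out. The IRS2 over IRS1 difference was 0.0109 without control replicate 2, 0.00059 without control replicate 3 and 0.0607 without SHC4 replicate 1. That of IGF1R over INSR was -0.101 without control replicate 1 and -0.00776 without SHC4 replicate 2. The mean of IGF2R over the 6 libraries was 35.5 RPKM on its longest transcript and 27.9 RPKM on merged exons.

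The labels do not say that a replicate number marks shared material. The deviations of same-numbered libraries correlated at 0.148, 0.013 and -0.00696 across the 23040 tested genes and at 0.409, 0.146 and 0.149 across the 12678 that averaged 50 or more, so whether the numbers pair the libraries depends on the genes used. Control replicate 2 correlated more with SHC4 replicate 3 (0.517 across the 12678 genes) than with its own number. The fit without the block was kept as the main one. A fit with a block for the replicate number gave adjusted p-values of 0.117 for IGF1R, 0.127 for IGF2R, 0.188 for IRS1, 0.216 for IRS2 and 0.285 for INSR, and called 0 genes of the family. All 5 of the tested genes had an unadjusted p below 0.05 with the block (17.5% of all genes), against 3 without it (14.4%). The block gave 28 genes higher and 19 lower over all genes, against 13 and 2 without it. A fold change threshold of 1 on the log2 scale left all counts of the family and the lists at 0. IGF1, with 2 reads in all, had too few for any fit at a mean of at least 1. The planned IGF2 fold change and the ratio of IGF2 over IGF1 were not run, since IGF2 is not analysed here.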
